A study of Homo sapiens with 4 samples.

Results

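Caveolae are small flask-shaped pits of the plasma membrane, and the genes described here encode the proteins that coat and brace them. The members were taken by name from the table of gene expression: the caveolins CAV1, CAV2 and CAV3, the cavins CAVIN1, CAVIN2 and CAVIN3, the ATPases EHD1 and EHD2, and PACSIN2. All 9 had a single row each among 57905 gene identifiers. The members follow from their names, but the group itself was chosen by measured values, the difference in FPKM between the siRNAs, that of CAV1 among them, being known. The values of its members between the groups are therefore a description, and no p-value is given for any of them.

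RNA sequencing of polyadenylated RNA was done on 4 libraries of cells labelled MG63, an established line from a human bone tumour, cultured in DMEM with serum. The control group had 2 libraries of cells transfected with a control siRNA, and the other group 2 libraries of cells transfected with an siRNA against KLF11, all after 48 hours. Both groups thus share transfection and culture, and all of the libraries come from cells labelled as this line. Nothing in the labels says that replicates were separate cultures, so the spread behind each p-value is that of these libraries alone and may be technical.

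In a caveola, caveolins are inserted in the inner leaflet of the membrane as oligomers, and cavins assemble on them from the cytosol into an outer coat. CAV1 and CAVIN1 are both needed for caveolae outside striated muscle, where CAV3 serves in place of CAV1. EHD2 sits at the neck and holds the pit at the surface, and PACSIN2 is an F-BAR protein that bends the membrane. Caveolae flatten under stretch and are abundant in fibroblasts, endothelial cells, smooth muscle and fat cells.

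The siRNA target, KLF11, is a zinc finger factor of the family that binds GC-rich and CACCC sequences. It measured 12.3 and 12.4 FPKM (fragments scaled by gene length and by library size, in replicate order) with control siRNA and 5.49 and 6.74 FPKM with KLF11 siRNA (log2 change -0.92, SE 0.139, adjusted p = 0.00951 in limma). The sequence just before listed starts of coat genes was therefore searched for those letters. RefSeq (GRCh38.p14) gave the 250 bases before 16 listed starts of 7 members, and CAVIN1 and CAVIN3 had no entry. Stretches outside annotated exons of GENCODE 29 are shown for the neighbouring genes CAV1 and CAV2, whose levels were higher with KLF11 siRNA, and for EHD2, whose level was not. The CAV1 stretch lies after other listed CAV1 starts (116525009 and 116525036), and the CAV2 stretch after another CAV2 start (116499738). Neither is thus upstream of its whole gene. Capitals mark the GC box GGGCGG and the CACCC box CACCC on either strand.
CAV1, chr7:116526112-116526276, plus strand: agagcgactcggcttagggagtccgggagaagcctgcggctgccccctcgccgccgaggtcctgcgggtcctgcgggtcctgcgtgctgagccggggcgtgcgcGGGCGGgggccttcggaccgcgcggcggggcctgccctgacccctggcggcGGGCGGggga
CAV2, chr7:116499932-116500043, plus strand: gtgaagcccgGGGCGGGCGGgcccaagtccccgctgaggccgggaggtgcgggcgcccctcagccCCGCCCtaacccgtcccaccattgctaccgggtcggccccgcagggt
EHD2, chr19:47713172-47713342, plus strand: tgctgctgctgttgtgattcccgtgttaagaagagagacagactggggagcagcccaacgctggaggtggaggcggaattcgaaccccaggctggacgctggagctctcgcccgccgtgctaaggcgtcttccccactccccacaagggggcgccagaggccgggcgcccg

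The CAV1 stretch holds 2 capital runs and the CAV2 stretch 2, of which the first is a pair of overlapping GC boxes. The EHD2 stretch holds none, although the whole 250-base window of EHD2 holds 1 GC box and 1 CACCC box. Over whole windows, all 5 starts of CAV1 and CAV2 had a GC box, as did 8 of the 16 starts of the members, against 42.6% of 35116 RefSeq promoter windows of this length. A start of EHD1, whose level was lower with KLF11 siRNA, had 5 GC boxes and 2 CACCC boxes. Most starts of PACSIN2, whose level was higher, had no GC box. The CACCC box was in 8 of 16 windows against 54.7% of all. The TEAD motif GGAATG was in 5 of 16, mostly starts of PACSIN2, against 11.9%. TGANTCA, the AP-1 motif, was in 0 of 16 against 6.57%. The CArG box, bound by serum response factor, was in 1 of 16, a start of EHD1, against 1.16%. Starts of a gene overlap one another, and a match describes letters only. Windows can also lie within the gene itself. Those before CAV1 starts 116525009 and 116525036 had 224 and 250 of 250 bases in CAV1 exons. The window before CAV2 start 116499738 had 250 in a CAV2 exon. The window of the EHD1 start with 5 GC boxes and the CArG box had 250 in an EHD1 exon.

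Among all genes with a mean of at least 1 FPKM, 15320 in number, 35.2% passed an adjusted p of 0.05 in limma on log2(FPKM + 1), 13.5% as higher and 21.7% as lower with KLF11 siRNA. Of the 9 coat genes, 7 were tested, and each of these was at 1.50 FPKM or above in every library, so none passed the filter through 1 group alone. Beside that background, 4 tested members were called higher (CAV1, CAV2, CAVIN1 and PACSIN2), 2 lower (CAVIN3 and EHD1) and 1 neither (EHD2). For each of the 7 the groups of libraries did not overlap, which held for 73.4% of all tested genes. The median log2 change of the 7 was 0.33, and that of all tested genes -0.11. Whether a lower level reflects fewer cells of a type or less RNA per cell cannot be told apart in bulk RNA.

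All of these calls rest on both control libraries. With control siRNA replicate 1 left out, limma called 0 of all tested genes, although 4461 had an unadjusted p under 0.05, and with replicate 2 left out 0, with 4793 at that unadjusted level. For the coat genes those counts were 0 with 5 unadjusted and 0 with 4 unadjusted. Median-of-ratios scaling, which moves the median of all genes to 0.01, gave 2757 genes higher and 2605 lower against 2071 and 3329 without it, and quantile normalization 2609 and 2648.

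**Figure D1:**
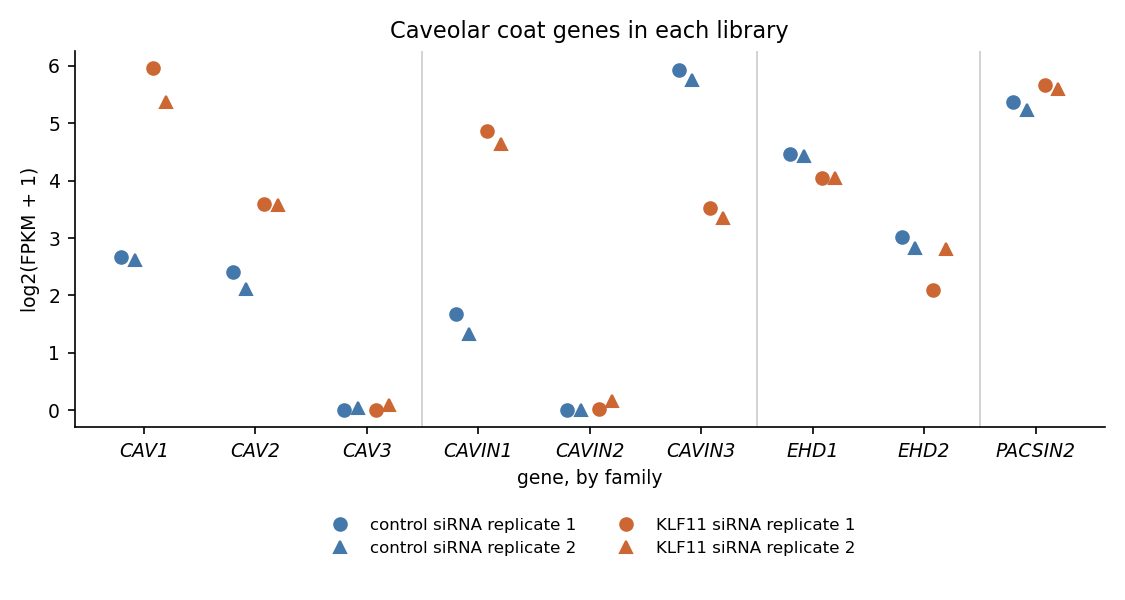
Level of each coat gene as log2(FPKM + 1), with 1 point per library, blue for control siRNA and orange for KLF11 siRNA, circles for replicate 1 and triangles for replicate 2. CAV1 and CAVIN1 stand well above their control libraries with KLF11 siRNA and CAVIN3 well below, while CAV3 and CAVIN2 lie near 0 throughout.

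CAV1 encodes the main structural caveolin outside muscle. It measured 5.34 and 5.15 FPKM with control siRNA and 61.4 and 40.3 FPKM with KLF11 siRNA. The controls lay close together, and KLF11 siRNA replicate 1 was the higher of its pair. Means were 5.25 ± 0.134 and 50.9 ± 15.0 FPKM (SD, n = 2 each). The fitted log2 change was 3.02 (SE 0.208), the 30th largest rise of all tested genes, and leaving out KLF11 siRNA replicate 1 gave 2.72 and leaving out replicate 2 gave 3.32.

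CAV2 encodes a caveolin that needs CAV1 to leave the Golgi and reach the membrane. It went from 4.31 and 3.31 to 11.1 and 10.9 FPKM, with a ratio of means of 2.88 and a log2 change of 1.32 (SE 0.155). Its KLF11 siRNA libraries agreed more closely than those of CAV1. CAV3, the caveolin of striated muscle, measured 0 and 0.03 FPKM with control siRNA and 0 and 0.06 FPKM with KLF11 siRNA and was not tested. At these levels no difference in CAV3 can be read.

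CAVIN1, once called PTRF, is the cavin without which caveolae do not form. It was the lowest of the tested coat genes in the control libraries, at 2.18 and 1.50 FPKM, and reached 28.1 and 24.0 FPKM with KLF11 siRNA. Its mean was 14.2 times the control mean, and its log2 change of 3.26 (SE 0.173) was the 23rd largest rise of all tested genes. Both KLF11 siRNA libraries lay far above both controls. CAVIN2, formerly SDPR, which shapes caveolar membrane in endothelial and fat cells among others, was listed at 0 in each of the controls and was at 0.01 and 0.12 FPKM with KLF11 siRNA. It was below the filter.

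CAVIN3, formerly PRKCDBP, binds protein kinase C delta and joins the cavin coat through CAVIN1. It moved against the other cavin. Control libraries held 60.2 and 53.1 FPKM and KLF11 siRNA libraries 10.5 and 9.18 FPKM, so that the control mean of 56.6 ± 5.06 FPKM was 5.76 times the other mean of 9.84 ± 0.926 FPKM (SD, n = 2 each). The log2 change was -2.41 (SE 0.118), the 96th largest fall of all tested genes.

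The neck and bending proteins differed less. EHD1, which acts mainly in endosomal recycling and can stand in for EHD2 at caveolae, went from 21.0 and 20.6 to 15.5 and 15.6 FPKM (log2 change -0.40, SE 0.095). It was no longer called with median-of-ratios scaling (log2 change -0.27) or quantile normalization (-0.27), with no filter or with the replicate block. The call of EHD1 was also lost without KLF11 siRNA replicate 1 (log2 change -0.39). EHD2 measured 7.08 and 6.07 FPKM with control siRNA and 3.25 and 6.03 FPKM with KLF11 siRNA (log2 change -0.47, SE 0.266). Its KLF11 siRNA replicate 2 lay just below the lower control, and without that library the log2 change was -0.83 and the gene was called, while without replicate 1 it was -0.10. PACSIN2 went from 40.4 and 36.4 to 49.8 and 47.5 FPKM (log2 change 0.33, SE 0.095) and was no longer called with TPM scaling (log2 change 0.30), no filter, no variance trend or the replicate block. Its call was also lost with any library left out (log2 change 0.26 to 0.41). The interval from the 25th to the 75th percentile of the log2 changes of all tested genes ran from -0.48 to 0.23, so EHD1 and EHD2 lay inside it and PACSIN2 just above it. With the median of all genes subtracted, EHD1 was at -0.29, EHD2 at -0.36 and PACSIN2 at 0.44 on the log2 scale.

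FPKM is per length, so levels can be set beside each other within a library. In control libraries the order from high to low was CAVIN3, PACSIN2, EHD1, EHD2, CAV1, CAV2 and CAVIN1, and no neighbours in that order overlapped between replicates. With KLF11 siRNA the order was CAV1, PACSIN2, CAVIN1, EHD1, CAV2, CAVIN3 and EHD2, with CAV1 and PACSIN2 overlapping, since CAV1 was above PACSIN2 in replicate 1 and below it in replicate 2. CAVIN3 thus led in the controls and came next to last with KLF11 siRNA. CAVIN1 was the last of these in the controls and came next after PACSIN2 with KLF11 siRNA.

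A ratio within a library does not move when all values of that library are multiplied by a common factor. CAVIN3 exceeded CAVIN1 by 27.6 and 35.4 times in the control libraries, and the ratio was 0.374 and 0.382 with KLF11 siRNA. CAVIN1 made up 3.49% and 2.75% of summed cavin FPKM in the controls and 72.8% and 72.1% with KLF11 siRNA. The cavins thus changed places while their sum went from 62.4 and 54.6 to 38.6 and 33.3 FPKM. Summed caveolins went the other way, from 9.65 and 8.49 to 72.5 and 51.2 FPKM.

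CAV1 was 1.24 and 1.56 times CAV2 in the controls and 5.56 and 3.70 times CAV2 with KLF11 siRNA. The ratio of CAVIN1 to CAV1, both of which the coat needs, was 0.408 and 0.291 in controls and 0.457 and 0.596 with KLF11 siRNA, the smallest shift among the ratios computed with CAV1. EHD2 was 1.33 and 1.18 times CAV1 in the controls and 0.0529 and 0.150 times CAV1 with KLF11 siRNA. PACSIN2 went from 7.56 and 7.07 times CAV1 to 0.810 and 1.18 times. The ratio of EHD1 to EHD2 was 2.97 and 3.39 in the controls and 4.78 and 2.59 with KLF11 siRNA, on both sides of the control values. These ratios are of transcripts and carry no test.

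**Figure D2:**
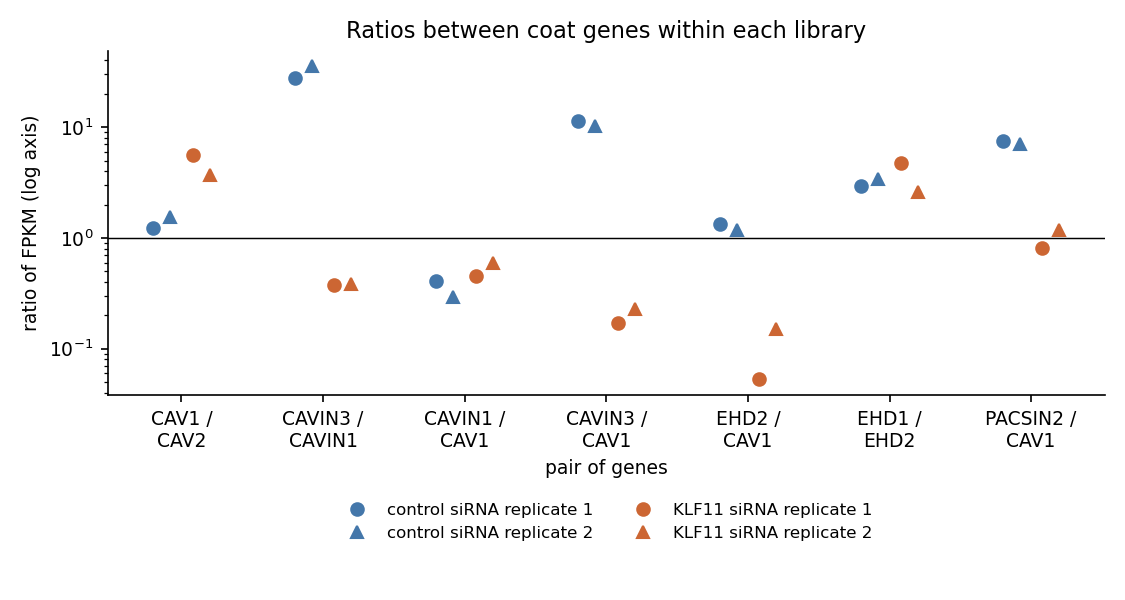
Ratio of FPKM between pairs of coat genes within each library on a log axis, with the same colours and symbols for group and replicate and a line at 1. The ratio of CAVIN3 to CAVIN1 falls from 27.6 and 35.4 to 0.374 and 0.382, and the ratio of EHD1 to EHD2 overlaps between the groups.

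The genes next to the coat genes on the chromosome were examined, as they were not part of the choice of members. The nearest protein-coding genes on either side, by the order of RefSeq genes, gave 12 tested neighbours, of which 3 rose, 3 fell and 6 did not pass, against 35.2% of all tested genes called. On chromosome 7 the order is TES, CAV2, CAV1 and MET. TES, which encodes a focal adhesion protein, rose from 26.8 and 26.9 to 52.2 and 45.7 FPKM (adjusted p = 0.00588, limma). MET, the receptor for hepatocyte growth factor, was at 0.77 and 0.68 FPKM and then at 1.70 and 2.21 FPKM with KLF11 siRNA (adjusted p = 0.0380, limma). MET reached the filter only through its KLF11 siRNA libraries, and its call was lost with no filter and with the replicate number as a block. The call of MET was also lost without KLF11 siRNA replicate 2 (log2 change 0.65).

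On chromosome 17 CAVIN1 lies between STAT3 and ATP6V0A1. STAT3, a transcription factor of cytokine signalling, rose from 14.5 and 14.1 to 38.1 and 36.4 FPKM (log2 change 1.32, SE 0.092, adjusted p = 0.00246, limma), and ATP6V0A1, a subunit of the proton pump, did not pass (log2 change -0.23, adjusted p = 0.148, limma). On chromosome 11 CAVIN3 lies between CCKBR and SMPD1, and both neighbours fell with it. CCKBR, the gastrin receptor, fell from 186 and 172 to 4.73 and 24.8 FPKM (adjusted p = 0.0132, limma), a call lost with no filter. SMPD1, the acid sphingomyelinase of lysosomes, fell from 11.2 and 11.4 to 6.62 and 6.51 FPKM (adjusted p = 0.0115, limma).

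The neighbours of the EHD genes did not pass, namely CDC42BPG (log2 change -0.31) and ATG2A (-0.35) beside EHD1, and BICRA (-0.15) and NOP53 (0.18) beside EHD2. NOP53 passed with median-of-ratios scaling (0.31), and BICRA changed sign without KLF11 siRNA replicate 2 (0.06). Of the neighbours of PACSIN2, ARFGAP3 fell, from 18.6 and 18.0 to 9.20 and 11.9 FPKM (adjusted p = 0.0176, limma), against the direction of PACSIN2, a call lost with no filter. TTLL1 did not pass (log2 change -0.56, adjusted p = 0.0611, limma) but was called with TPM scaling (-0.65) and with no variance trend. The strand setting is not given in the sources used here, so reads of genes that overlap cannot be told apart. RefSeq lists a noncoding gene overlapping CAVIN1, CAVIN2, CAVIN3, EHD1, EHD2 and PACSIN2, the gene OXTR overlapping CAV3, and none over CAV1 or CAV2.

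**Figure D3:**
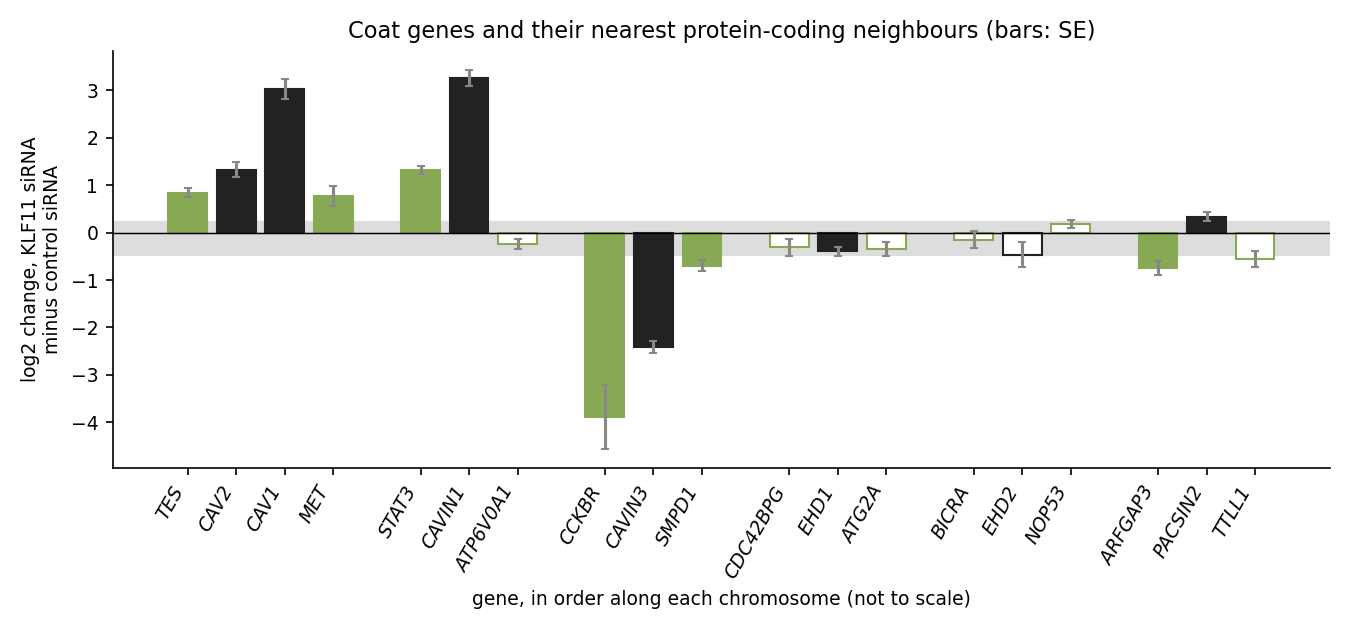
Log2 change (KLF11 siRNA minus control siRNA, on log2(FPKM + 1), bars show SE) of coat genes in black and their nearest protein-coding neighbours in green, filled where past the threshold, in order along each chromosome and not to scale; the grey band holds the middle 50% of all tested genes. TES, CAV2, CAV1 and MET are all above 0, and CCKBR, CAVIN3 and SMPD1 all below.

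Other genes that work with caveolae were taken in 6 lists holding 60 genes, none of them a member. Of 56 tested, 15 rose, 10 fell and 31 did not pass, so 44.6% were called beside 35.2% of all tested genes. With no filter on level, which tests 34232 genes, 6 listed genes were called higher and 4 lower. Of the close relatives of the coat proteins, CAVIN4, EHD3, EHD4, PACSIN1 and PACSIN3, 1 of 5 rose, with a list median log2 change of -0.08. EHD3, a recycling ATPase, rose from 4.99 and 4.81 to 7.89 and 10.8 FPKM (adjusted p = 0.0241, limma), a call lost with no filter. CAVIN4, the cavin of muscle, measured 4.16 and 4.83 FPKM with control siRNA and 3.85 and 4.02 FPKM with KLF11 siRNA (adjusted p = 0.468, limma).

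Flotillins build membrane domains that are distinct from caveolae, and both fell. FLOT1 was at 73.7 and 67.0 FPKM in the controls and at 29.2 and 26.4 FPKM with KLF11 siRNA (adjusted p = 0.0031, limma) and FLOT2 from 93.4 and 88.4 to 48.7 and 55.6 FPKM (adjusted p = 0.00643, limma). Of the dynamins, which cut vesicle necks, DNM2 measured 58.0 and 51.5 FPKM with control siRNA and 54.4 and 56.6 FPKM with KLF11 siRNA and did not pass, nor did DNM1. DNM3 rose, from 0.68 and 0.31 to 2.20 and 1.87 FPKM, having reached the filter through its KLF11 siRNA libraries. Its call was lost with no filter. Dynamins and flotillins thus gave 1 rise and 2 falls of 5 tested, with a median log2 change of -0.51.

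Of kinases and linkers of caveolin, 4 of 7 tested rose and 2 fell, with a median of 0.36. SRC, the kinase that phosphorylates CAV1, fell from 37.7 and 34.2 to 21.9 and 22.2 FPKM (adjusted p = 0.0083, limma), while its relatives YES1 and FYN rose, YES1 from 40.0 and 43.5 to 62.7 and 55.7 FPKM. The adaptor GRB7 fell from 10.7 and 8.45 to 3.01 and 4.69 FPKM. FLNA, the filamin that ties caveolae to actin, rose from 266 and 238 FPKM to 324 in each library (adjusted p = 0.0348, limma). That call and the rise of ROR1 were lost with TPM scaling (log2 changes 0.32 and 0.66), with no filter and with no variance trend. The call of FLNA was also lost with any library left out (log2 change 0.28 to 0.45). The call of FYN was lost with no filter, with no variance trend, with the replicate block and with any library left out, and those of YES1 and GRB7 with no filter.

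Among signalling proteins known to reside in caveolae 2 of 10 tested rose and 3 fell, with a median of -0.19. The integrin subunit ITGB1 rose 2.00-fold, from 170 and 199 to 373 and 365 FPKM. PDGFRB, a receptor for platelet-derived growth factor, rose from 0.61 and 0.32 FPKM to 4.71 and 3.80 (adjusted p = 0.00541, limma), again through the filter by its KLF11 siRNA libraries. BMPR2, ADCY6 and LRP6 fell. The call of ADCY6 was lost with no filter, and that of LRP6 with no filter, median-of-ratios scaling, quantile normalization, no variance trend and the replicate block. LRP6 also lost its call with any library left out. EGFR, INSR, TGFBR1, TGFBR2 and PTCH1 did not pass.

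Caveolae need cholesterol and sphingolipids. Of genes supplying membrane lipid, 4 of 11 tested rose and 1 fell, with a median of 0.31. HMGCS1 (2.03-fold) and SQLE (2.07-fold) of cholesterol synthesis, and UGCG (1.97-fold) and SGMS1 of sphingolipid synthesis were those that rose. ABCA1, which exports cholesterol, fell from 10.4 and 10.2 to 0.94 and 3.49 FPKM (adjusted p = 0.0199, limma), a call lost with no filter, as was that of SGMS1, which was also lost with the replicate block. The serine palmitoyltransferase genes SPTLC1 and SPTLC2 did not pass.

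The clathrin coat, another endocytic coat, served for comparison. Of 18 tested genes 3 rose, 2 fell and 13 did not pass, with a median of -0.08. Its scaffold CLTC measured 164 and 166 FPKM with control siRNA and 144 and 157 FPKM with KLF11 siRNA (adjusted p = 0.275, limma). DAB2, a cargo adaptor, had the largest change of the list and rose from 12.9 and 11.9 to 31.4 and 28.2 FPKM (log2 change 1.20, SE 0.110, adjusted p = 0.00372, limma). AP2M1 and AP2S1 rose and AP2A2 and EPN2 fell, each by under 0.5 on the log2 scale. None of these 4 calls held with no filter. That of AP2M1 was also lost with TPM scaling, quantile normalization, no variance trend and the replicate block, that of AP2S1 with no variance trend, and that of EPN2 with median-of-ratios scaling, quantile normalization and the replicate block. No test compared the lists with the caveolar coat.

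**Figure D4:**
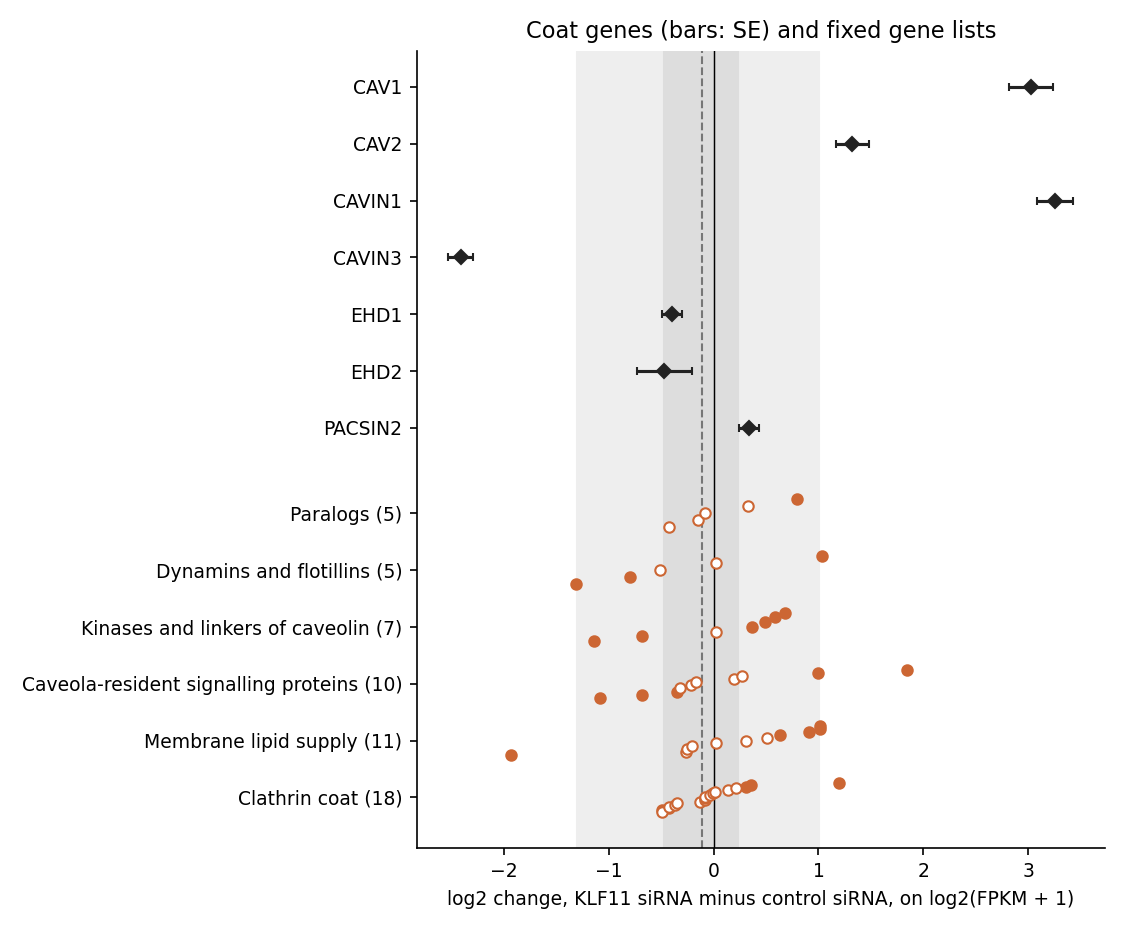
Log2 change (KLF11 siRNA minus control siRNA) of the 7 tested coat genes as black diamonds with SE bars, and of tested genes in the 6 lists as circles, filled where past the threshold; grey bands span the 5th to 95th and the 25th to 75th percentiles of all tested genes, with their median dashed. CAV1 at 3.02, CAV2 at 1.32, CAVIN1 at 3.26 and CAVIN3 at -2.41 lie outside the outer band, and most clathrin coat genes lie inside the inner one.

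Markers of cell types rich in caveolae, and of the labelled line, were read in the same libraries, and their part in the coat gene values was not tested. Of smooth muscle markers 3 of 4 tested rose (TAGLN, CNN1 and ACTA2), and the summed level of the list went from between 229 and 255 FPKM to between 1118 and 1270 FPKM, most of it TAGLN, with MYH11 at or below 0.29 FPKM everywhere. SMTN, also tested, was lower, from 9.09 and 9.85 to 5.88 and 7.22 FPKM, and did not pass (adjusted p = 0.0557, limma). Fibroblast markers rose in 2 of 3 tested (THY1 and PDGFRB), from sums of 22.8 and 20.7 to 80.9 and 85.3 FPKM, with DCN, LUM and FAP under 1 FPKM throughout. Of these, THY1 was above the filter in all libraries, and PDGFRB reached it only through its KLF11 siRNA libraries. PDGFRA, also tested, was lower, from 11.5 and 12.3 to 8.41 and 10.9 FPKM, and did not pass (adjusted p = 0.200, limma). COL3A1 was not tested and went from 0.01 and 0 FPKM to 1.40 and 0.95 FPKM with KLF11 siRNA. Endothelial markers summed to between 20.0 and 21.8 FPKM with control siRNA and to between 17.6 and 22.6 FPKM with KLF11 siRNA, VWF falling and CDH5 at or below 0.68 FPKM. TEK (control mean 0.63 FPKM) and ESAM (0.045 FPKM) were called higher, both having reached the filter only through their KLF11 siRNA libraries. No adipocyte marker passed 0.24 FPKM, and FABP4 was listed at 0 in all libraries. Skeletal muscle markers summed to at most 2.25 FPKM, with MYOD1 and MYH8 listed at 0.

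Of epithelial markers 0 of 8 tested rose and 7 fell, and of endoderm markers 0 of 6 rose and 4 fell. Of the epithelial ones, CLDN3 and CLDN4 reached the filter only through their control libraries. Epithelial sums went from 2175 and 2001 to 757 and 1035 FPKM and endoderm sums from 4875 and 4845 to 1017 and 2736 FPKM. Most of the endoderm sum is CER1, at 4430 and 4406 FPKM and then 958 and 2574 FPKM, which did not pass (adjusted p = 0.0543, limma). CXCR4 did not pass either, and SOX17, GATA4, GATA6 and FOXA2 were those that fell. Pluripotency markers, with POU5F1 at 186 and 177 FPKM and 1364 and 1068 FPKM, rose in 4 of 6 and fell in 1, from 1320 and 1330 to 2644 and 2209 FPKM in sum. POU5F1 has pseudogenes that can take or give reads. NANOG rose from 33.9 and 30.4 to 162 and 95.9 FPKM, and SOX2 and DPPA4 rose too. LIN28A fell from 385 and 396 to 323 and 285 FPKM, and TDGF1 did not pass. Of the osteoblast-lineage markers, SPARC, COL1A2 and ALPL were abundant in every library, 1 of 5 tested rose and 1 fell, and sums were 922 and 881 against 994 and 1005 FPKM. RUNX2 and SP7, which define that lineage, were not tested. RUNX2 was at 0.03 and 0.02 FPKM with control siRNA and at 0.60 and 0.65 FPKM with KLF11 siRNA. SP7 was at or below 0.04 FPKM. BGLAP, not tested either, went the other way, from 1.39 and 0.77 to 0.18 and 0.38 FPKM. The libraries labelled MG63 thus held pluripotency, epithelial and endoderm transcripts in both groups.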

How the data were processed

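The authors deposited FPKM values (fragments scaled by gene length and library size, to 2 decimals) for 57905 gene identifiers in 4 libraries. RSEM 1.3.1, Trim Galore 0.5.0 and build hg19 (GRCh37) are named per the submitters' processing notes. Aligner, annotation and strand setting: not given in the sources used here. No counts are given, so depth is unknown, and FPKM summed to 577849 to 604498 per library. Columns were matched to samples by name, leaving 0 unmatched. All 9 member identifiers matched the current name table.

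Genes with a mean of at least 1 FPKM were tested with limma 3.58.1 (R 4.3.3; lmFit, eBayes with trend) on log2(FPKM + 1), with Benjamini-Hochberg adjustment over all 15320 tested genes and a threshold of 0.05. This scale understates changes of low genes. The test was checked on data simulated with the same log2 spread for all genes in both groups, so the check does not cover unequal spreads. With 2 libraries a group, an exact permutation test cannot reach that threshold and was left out. Members and lists were chosen with earlier results of these data known. Genes named were all members, KLF11, called genes of each list (up to 4 by p), chromosomal neighbours and the 5 genes most like CAV1; some listed genes are not reported here and are in no list count, and further genes were named after their values were seen. Alternatives were pseudocounts of 0.1 and 5, no filter, a filter of 5 FPKM, TPM, median-of-ratios and quantile scaling, eBayes without trend or robust, the replicate number as a block, and each library left out. Figures used matplotlib 3.10.9.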

Additional observations from a re-analysis of the deposited data

How the results depend on the processing

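CAV1, CAV2, CAVIN1 and CAVIN3 kept their direction in all 14 alternatives and their call in all 10 that kept every library, with log2 changes of 2.42 to 3.22, 0.86 to 1.51, 2.18 to 3.77 and -2.51 to -2.05. EHD1, EHD2 and PACSIN2 also kept their direction in all 14. Of the 10 that kept every library, EHD1 and PACSIN2 were each called in 6 and EHD2 in 0. Without KLF11 siRNA replicate 1 the calls of EHD1, ROR1, YES1, DNM3, SGMS1, AP2M1, AP2S1 and EPN2 were lost. Those of PACSIN2, FYN, FLNA and LRP6 were lost with either KLF11 siRNA library left out. The count of lower coat genes was 1 with no filter, with median-of-ratios scaling, with quantile normalization and with the replicate block, since EHD1 was lost. With no filter, which tests 34232 genes, 887 were higher and 1251 lower, and in the lists 6 and 4. Replicate numbers shared no label of a culture or day, and differences between replicates correlated at -0.071 between the groups over genes. The replicate block gave 1707 higher and 2644 lower genes, and 3 higher coat genes with PACSIN2 lost. With each library left out, counts ranged from 0 to 2291 higher and 0 to 3813 lower genes, 0 to 3 higher and 0 to 3 lower coat genes, and 0 to 14 higher and 0 to 15 lower list genes, the zeros being the fits without a control library, where the spread rests on the KLF11 siRNA pair. In those fits 21 and 18 list genes had an unadjusted p under 0.05 in limma. BICRA was at 0.0011 with quantile normalization and ran from -0.36 to 0.063 with libraries left out, and the log2 change of the ratio of EHD1 to EHD2 from -0.30 to 0.59. The cause of these changes was not tested. Depth is unknown, so the levels of CAV3 and CAVIN2 have no floor.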

Other observations

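The genes whose profile over the 4 libraries lay nearest to that of CAV1, by Euclidean distance of log2(FPKM + 1) from the control mean, were SEMA6A, CHST2, LINC00678, PTHLH and THBS2, at distances of 0.103 to 0.246. They were chosen for this likeness and carry no test. SEMA6A, a transmembrane semaphorin, measured 35.9 and 33.0 FPKM with control siRNA and 332 and 235 FPKM with KLF11 siRNA. CHST2, a sulfotransferase, went from 3.58 and 2.95 to 42.9 and 29.3 FPKM, and PTHLH, the parathyroid hormone-like hormone, from 0.60 and 0.39 to 12.2 and 8.31 FPKM. Like CAV1, all 5 were higher in KLF11 siRNA replicate 1 than in replicate 2, which follows from how they were chosen. Of the coat genes, CAVIN1 was the closest to CAV1, in place 28 at a distance of 0.477, and CAV2, the chromosomal neighbour of CAV1, was in place 448 at 2.44.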
